A study of Mus musculus with 17 samples.

Results

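The comparison described here is the difference between endoglin knockout (KO) and wild-type (WT) bone marrow endothelial cells that is shared by both collection times. It took every library of the series, 17 of 17, and set 8 KO against 9 WT libraries with the time label as a block term. Of the 49585 genes in the count tables, 4987 had at least 10 counts in every library and were tested. Each library comes from mouse bone marrow: cells that were CD45-, Ter119-, CD31+ and Sca1+ were sorted straight into lysis buffer after red cell lysis, and their RNA was sequenced by SmartSeq2, a full-length, poly-A based method for small RNA amounts.

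The KO animals carried Cdh5:CreERT2, a tamoxifen-dependent recombinase driven by the VE-cadherin promoter of endothelial cells, together with Eng alleles whose exons 5 and 6 are flanked by loxP sites. Tamoxifen was injected at 8 weeks of age, and the labels record tamoxifen injections for the WT animals too. The labels do not say whether WT animals carried the recombinase or the floxed allele. Cells were collected 2 weeks after induction (4 WT and 4 KO) or 4 weeks after it (5 WT and 4 KO), from both sexes at each time. The labels do not state that each library is a separate animal, so the p-values measure the spread between these libraries.

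Endoglin is a co-receptor for ligands of the TGF-beta and BMP family. On endothelial cells it works with the type I receptor Acvrl1, which signals through SMAD transcription factors to genes such as Id1 and Id3. Mutations in the human gene cause hereditary haemorrhagic telangiectasia, a disease of fragile and malformed vessels. In bone marrow, endothelial cells line arterioles and sinusoids and supply factors to blood stem cells.

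The 2 exons that recombination removes are shown because they define the allele. In the GRCm38 reference, Eng lies on the forward strand at chr2:32646595-32682669, and both exons are wholly coding. Exon 5 spans chr2:32672218-32672383 and exon 6 spans chr2:32672837-32672957; capitals mark exonic bases, which here is all of them.

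Eng exon 5: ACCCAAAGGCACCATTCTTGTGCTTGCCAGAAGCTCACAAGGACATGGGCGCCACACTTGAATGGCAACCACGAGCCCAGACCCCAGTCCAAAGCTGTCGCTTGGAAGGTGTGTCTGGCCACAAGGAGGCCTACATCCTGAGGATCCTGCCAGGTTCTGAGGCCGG

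Eng exon 6: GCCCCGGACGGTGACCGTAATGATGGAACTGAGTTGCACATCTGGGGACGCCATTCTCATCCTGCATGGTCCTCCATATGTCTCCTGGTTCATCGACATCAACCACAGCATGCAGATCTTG

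Together the exons hold 287 bases, a length that leaves a remainder of 2 after division by 3. They make up 8.39% of the 3422 bases of the reference transcript, which has 15 exons. The tables count reads per gene and not per exon, so reads from the rest of a recombined transcript would still count as Eng.

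Sequencing depth ran from 20477400 to 40882715 gene counts per library. The collection times differed in more than age. The 2-week libraries detected 10886 to 13583 genes and held 22.2% to 29.5% mitochondrially encoded counts. The 4-week libraries detected 15996 to 21235 genes and held 4.66% to 8.99%. The time term absorbs such shifts in level, and time and whatever else differed between the collections cannot be told apart. Values below are CPM, gene counts scaled to a common library total and normalised by the trimmed mean of M-values (TMM).

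Eng itself was the gene with the smallest p in the comparison, and it was lower in every KO library than in every WT library of the same time. At 2 weeks the WT libraries had 1187, 1119, 742.3 and 1499 CPM of Eng, and the KO libraries had 229.6, 286.5, 379.4 and 305.3 CPM. At 4 weeks the WT libraries had 2443, 2542, 2257, 2485 and 2369 CPM, and the KO libraries had 820.1, 306.2, 1491 and 251.8 CPM. The KO libraries thus kept from 10.4% to 61.6% of the WT mean of their time, with the 4-week KO male m2 the highest. The log2 fold change over both times was -1.83 (SE 0.271; edgeR quasi-likelihood test, Benjamini-Hochberg adjusted p = 0.00951). A two-sided exact permutation test within each time gave p = 0.000113, which is the smallest it can give. The difference was -1.96 at 2 weeks and -1.75 at 4 weeks on the log2 scale. Of the genes tested, 0.0201% were called lower in KO at an adjusted p under 0.05, and Eng was that gene.

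**Figure D1:**
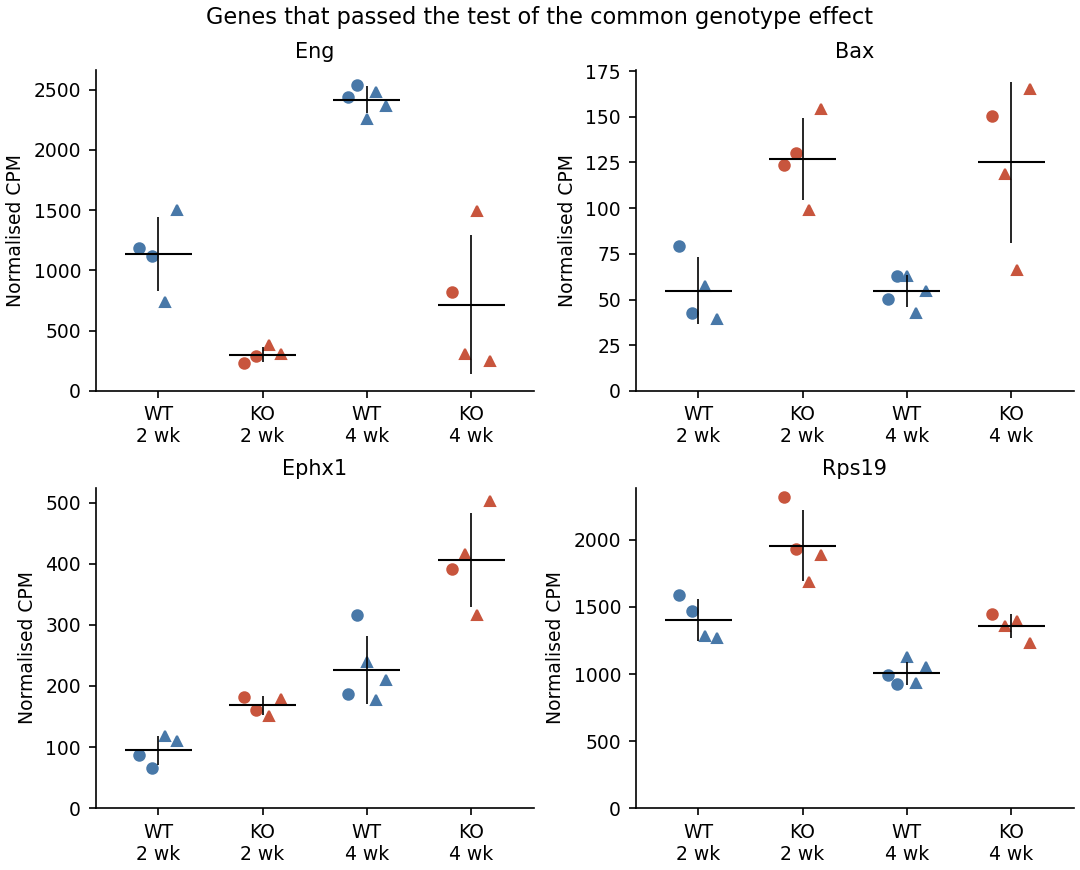
Normalised CPM of Eng, Bax, Ephx1 and Rps19 in each library by genotype and weeks after tamoxifen (circles, females; triangles, males; horizontal line, group mean; vertical line, SD; 4 or 5 libraries a group). Eng is lower, and Bax and Rps19 are higher, in every KO library than in every WT library of the same time; for Ephx1 the groups overlap at 4 weeks.

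Another 3 genes, 0.0602% of those tested, rose in KO cells: Bax, Ephx1 and Rps19. Bax encodes a pro-apoptotic protein of the BCL2 family that permeabilises the outer mitochondrial membrane, and it is a textbook p53 target. Ephx1 encodes microsomal epoxide hydrolase, a detoxifying enzyme, and belongs to the p53 target list used here. Rps19 encodes a protein of the small ribosomal subunit; its mutation in people causes Diamond-Blackfan anaemia.

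Bax (ENSMUSG00000003873, chr7:45461697-45466898, reverse strand) had 79.5, 42.6, 57.5 and 39.4 CPM in the 2-week WT libraries and 124, 130, 99.2 and 154 CPM in the 2-week KO libraries. At 4 weeks the WT libraries had 50.1, 63.0, 62.9, 42.7 and 54.5 CPM and the KO libraries had 150, 119, 66.0 and 165 CPM. The groups did not overlap at either time, although the 4-week KO male m2 stood only just above the WT range. The common log2 fold change was 1.20 (SE 0.204; edgeR quasi-likelihood, adjusted p = 0.0274), and the exact permutation p was 0.000113. It was 1.17 at 2 weeks and 1.19 at 4 weeks. Exons of Bax overlap the predicted gene Gm45808, and the strand setting of the counting is not given in the sources used here.

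Ephx1 (ENSMUSG00000038776, chr1:180976210-181020904, reverse strand) had 86.3, 65.7, 118 and 110 CPM in the 2-week WT libraries against 182, 161, 150 and 179 CPM in KO. In the 4-week libraries Ephx1 had 187, 316, 238, 177 and 209 CPM in WT against 392, 415, 315 and 503 CPM in KO. The groups were apart at 2 weeks; at 4 weeks the WT female f3 lay at the level of the lowest KO library, again the male m2. The log2 fold change was 0.84 (SE 0.148; edgeR quasi-likelihood, adjusted p = 0.0274; exact permutation p = 0.00034). Exons of Ephx1 overlap the predicted gene Gm36961.

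Rps19 (ENSMUSG00000040952, chr7:24884371-24889806, forward strand) had 1403 ± 156 CPM in 2-week WT and 1957 ± 265 CPM in 2-week KO libraries (SD, n = 4 each). The 4-week WT libraries stood at 1006 ± 84.1 CPM (SD, n = 5). Their KO counterparts stood at 1359 ± 91.7 CPM (SD, n = 4). The groups did not overlap at either time, and the difference was 0.44 at 2 weeks and 0.43 at 4 weeks on the log2 scale. The common log2 fold change was 0.46 (SE 0.0816; edgeR quasi-likelihood, adjusted p = 0.0274; exact permutation p = 0.000113). The annotation names 14 pseudogenes of Rps19, so its count could be split between near-identical copies.

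Leaving out any 1 library kept Eng called in 17 of 17 fits, with adjusted p up to 0.041. Bax kept its call in 8 of the 17 fits, Ephx1 in 6 and Rps19 in 5, and their adjusted p went up to 0.108, 0.126 and 0.121. All 3 lost it without the 4-week WT f, m2 or m3, the 4-week KO f2, m1 or m3, the 2-week WT f4 or m3, or the 2-week KO f4. Ephx1 also lost it without the 4-week WT m1 or the 2-week WT f1, and Rps19 without the 4-week WT f3, the 4-week KO m2 or the 2-week WT m2. Over these fits the log2 fold change stayed within 1.11 to 1.30 for Bax, 0.76 to 0.91 for Ephx1 and 0.41 to 0.48 for Rps19. With more genes tested, edgeR quasi-likelihood no longer called Eng: its adjusted p was 0.0543 with filterByExpr and 0.0655 with no count filter, and Rps19 alone was called. In the 4-week libraries alone Eng had an adjusted p of 0.992 (edgeR quasi-likelihood).

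Rps27l followed next with an adjusted p of 0.0572 (edgeR quasi-likelihood; log2 fold change 0.90, SE 0.175), so it was not called. It encodes a ribosomal protein-like factor that is induced by p53. It had 184, 118, 139 and 120 CPM in 2-week WT libraries and 470, 209, 217 and 202 CPM in 2-week KO libraries. Its 4-week values were 136, 146, 144, 163 and 169 CPM in WT and 336, 271, 198 and 283 CPM in KO. The groups did not overlap at either time, and the 2-week KO female f1 was far above the rest of its group.

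KO and WT libraries were apart at both times in the same direction for 7 genes. There were 6 higher in KO (0.12% of those tested), among them Bax, Rps19, Rps27l, Rpl17 and Rack1. The 1 gene lower in KO (0.0201%) was Eng. Rpl17 encodes a protein of the large ribosomal subunit, and Rack1 encodes a scaffold protein on the small subunit. Rpl17 had a log2 fold change of 0.49 (SE 0.119) and Rack1 of 0.24 (SE 0.0843), and neither was called by edgeR quasi-likelihood. DESeq2, run as an alternative, called Rpl17 (adjusted p = 0.00177). It gave an adjusted p for only 829 of the 4987 genes, Bax not among them, and called 24. Here and below, its adjusted p-values therefore cover fewer genes than those of edgeR and are not like for like.

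**Figure D2:**
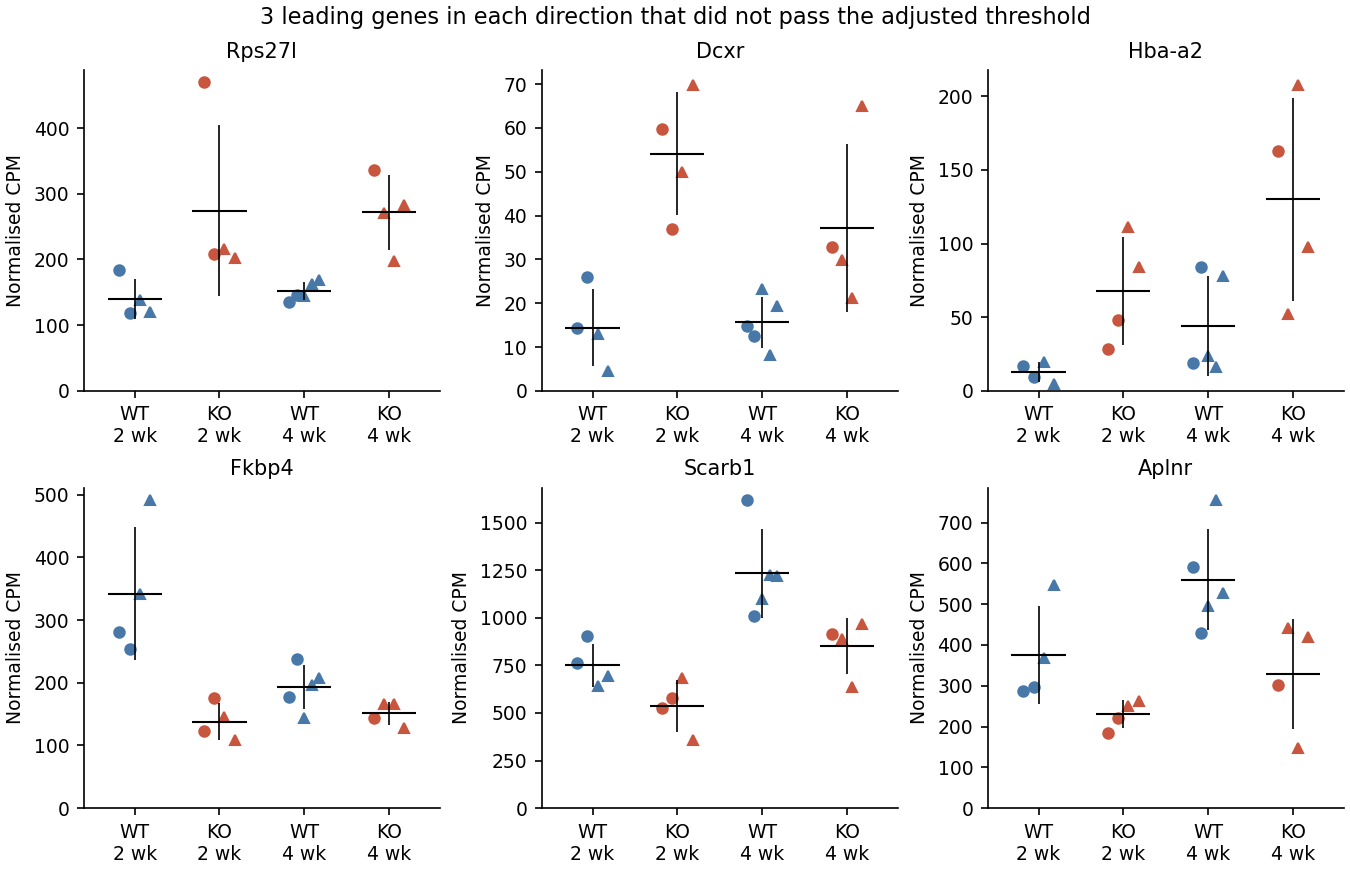
Normalised CPM of Rps27l, Dcxr, Hba-a2, Fkbp4, Scarb1 and Aplnr in each library (symbols as in the plot of the called genes). The KO libraries lie mostly above WT in the top row and below it in the bottom row; none of the 6 passed the adjusted threshold in edgeR's quasi-likelihood test, while DESeq2 called Rps27l, Fkbp4, Scarb1 and Aplnr.

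In the p53 target list, 10 of 32 members were tested, and 8 of these had positive and 2 negative log2 fold changes, with a median of 0.69 against 0.02 over all genes tested. The list was chosen with results of these libraries known, so its direction is not independent evidence. Bax and Ephx1 were called, and 6 of the 10 had an unadjusted p under 0.05 in the higher direction, against 3.57% of all genes. The 8 positive members were positive at both times, as were 29.2% of all genes tested. All 10 tested members come from the same libraries and are not replicates of each other.

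Among the arrest and feedback members, Cdkn1a, which encodes the cyclin-dependent kinase inhibitor p21, had a log2 fold change of 0.58 (SE 0.232). It ranged from 251 to 896 CPM in 2-week WT and from 425 to 729 CPM in 2-week KO libraries, which overlap. Its 4-week ranges also overlapped, at 413 to 835 CPM in WT and 739 to 1211 CPM in KO. Ccng1, cyclin G1, had a log2 fold change of 0.80 (SE 0.294), with overlapping groups at both times. Dcxr, a carbonyl reductase, had 14.5 ± 8.79 CPM in 2-week WT and 54.2 ± 14.0 CPM in 2-week KO libraries (SD, n = 4 each). At 4 weeks the WT libraries had 8.17 to 23.3 CPM of Dcxr and the KO libraries 21.1 to 65.0 CPM, which overlap. Its log2 fold change was 1.86 at 2 weeks and 1.26 at 4 weeks, and the common value was 1.56 (SE 0.344; edgeR quasi-likelihood, adjusted p = 0.184). Plk2, a polo-like kinase, was at 0.30 and Trp53 itself at 0.29. The death receptor gene Fas was at -0.11 and the antiproliferative gene Btg2 at -0.24 on the log2 scale.

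The other 22 members of the list had fewer than 10 counts in at least 1 library and were not tested. Among them, 11 had a higher KO than WT mean at both times, 1 a lower mean at both, and 10 neither. These numbers were not compared with those of other untested genes, so they do not show a lean of this list. For some of the 11 the 2-week difference rests on 1 library. Gtse1 had 109 CPM in the 2-week KO female f1 and 0 CPM in every other 2-week library. Gdf15 had 2.127 CPM in the 2-week KO female f4 and 0 CPM in every other 2-week library. Phlda3, a p53-induced inhibitor of AKT, missed the minimum in 1 library. It had 3.81, 0, 13.5 and 3.28 CPM in 2-week WT and 63.7, 12.1, 22.7 and 92.9 CPM in 2-week KO libraries. At 4 weeks it had 13.1, 33.3, 25.5, 6.83 and 7.89 CPM in WT and 145, 66.6, 17.9 and 33.5 CPM in KO, and the groups overlapped at both times. With a more permissive count minimum its log2 fold change was 2.55 (SE 0.85) and its adjusted p was 1 (edgeR quasi-likelihood). The E3 ligase gene Mdm2, the main negative regulator of p53, ranged from 0 to 67.0 CPM in 2-week WT and from 0 to 51.4 CPM in 2-week KO libraries. At 4 weeks it ranged from 35.7 to 79.2 CPM in WT and from 73.0 to 110 CPM in KO, with overlap at both times.

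The 250 bases before a RefSeq start of 3 tested p53 list members are shown because members of this list had positive log2 fold changes together. The p53 decamer, the 10-base unit of a p53 response element, was searched by name in its degenerate form, which reads the same on both strands. A match was found before a start of 5 of the 10 tested members (Bax, Ccng1, Cdkn1a, Rps27l and Trp53), and of 11 of the 25 list members with a window. It was found for 8.2% of the 27025 genes with a window of this length. Capitals mark the matches. A match is a description and not a binding site. The coordinates are RefSeq's for GRCm38.p6: chr7:45466899-45467148 (reverse strand) for Bax, chr17:29090729-29090978 (forward strand) for Cdkn1a and chr11:40755287-40755536 (reverse strand) for Ccng1.

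Bax: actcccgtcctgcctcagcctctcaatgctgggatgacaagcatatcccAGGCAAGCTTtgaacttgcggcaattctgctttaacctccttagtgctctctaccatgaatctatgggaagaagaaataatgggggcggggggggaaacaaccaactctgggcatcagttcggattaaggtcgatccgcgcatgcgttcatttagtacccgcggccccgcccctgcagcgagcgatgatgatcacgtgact

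Cdkn1a: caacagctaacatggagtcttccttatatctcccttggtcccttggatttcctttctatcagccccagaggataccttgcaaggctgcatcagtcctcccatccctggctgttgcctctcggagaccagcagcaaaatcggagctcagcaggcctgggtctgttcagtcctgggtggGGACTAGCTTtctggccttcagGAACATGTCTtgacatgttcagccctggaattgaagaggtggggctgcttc

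Ccng1: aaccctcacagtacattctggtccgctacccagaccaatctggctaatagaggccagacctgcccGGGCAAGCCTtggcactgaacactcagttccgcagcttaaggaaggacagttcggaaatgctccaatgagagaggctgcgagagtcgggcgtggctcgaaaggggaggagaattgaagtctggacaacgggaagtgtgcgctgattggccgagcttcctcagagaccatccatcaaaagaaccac

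The matches begin 201 bases before the start of Bax, 73 and 51 bases before the upstream start of Cdkn1a and 185 bases before that of Ccng1. RefSeq gives 2 starts each for Cdkn1a and Rps27l, and the window of the other start of each (chr17:29093519-29093768 for Cdkn1a, chr9:66945836-66946085 for Rps27l) holds no match. The windows of Ephx1 and Dcxr hold none either, which says only that these letters are not in those 250 bases.

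Genes of cytosolic ribosomal proteins, which build the translating ribosome, showed small and nearly uniform positive values. Of 83 listed genes 80 were tested, and 79 had a positive log2 fold change, against 52.8% of all genes tested. The median was 0.24, and 79 members were positive at both times, against 29.2% of all genes. Rps19 was the only member called, and 51 of the 80 had an unadjusted p under 0.05 in the higher direction, against 3.57% of all genes. The values ran from -0.12 for Rpl13a to 0.90 for Rps27l, which this list also holds. This list too was chosen with results of these libraries known, and many of its members have near-identical pseudogenes. The summed level of the list was 52630 to 57870 CPM in 2-week WT and 60370 to 72610 CPM in 2-week KO libraries. The 4-week sums were 35020 to 42880 CPM in WT and 42320 to 47600 CPM in KO, so the groups overlapped there.

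Genes of energy metabolism had smaller median values. Nuclear genes for respiratory chain subunits had 60 positive and 14 negative values among 74 tested (median 0.18, none called). The 13 mitochondrially encoded genes were positive in 13 of 13 cases with a median of 0.10, and 8 of them were positive at both times. Of 19 tested glycolysis and hypoxia genes, 14 were positive and 5 negative (median 0.08), and edgeR quasi-likelihood called none. The glycolytic enzyme gene Aldoa had 0.27 (SE 0.0988) and the mitophagy receptor gene Bnip3 had 0.51 (SE 0.214), while the hypoxia factor gene Epas1 was at -0.37.

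**Figure D3:**
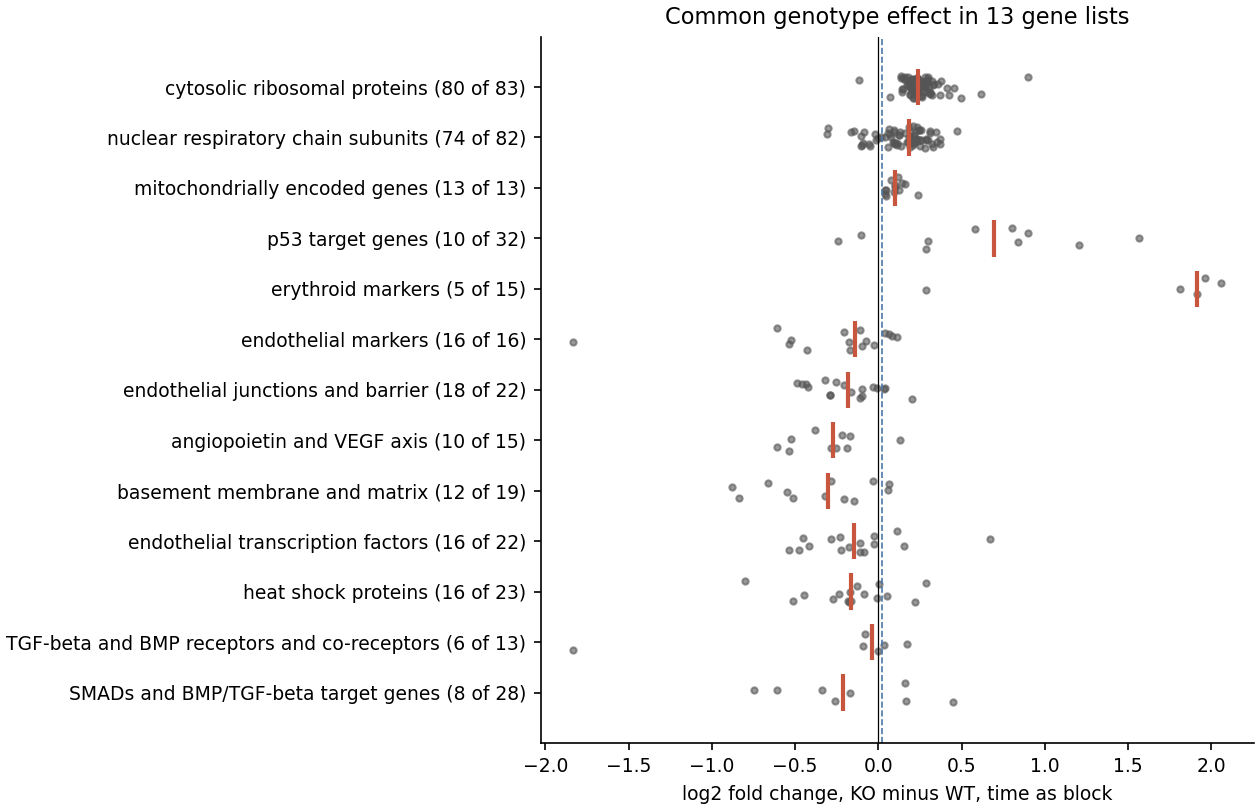
Log2 fold change of each tested member of 13 gene lists (points), with the list median (red bar) and the median over all genes tested (dashed line); brackets give members tested of members listed. The ribosomal protein median is 0.24, the p53 median 0.69 and the erythroid median 1.92, while the medians of the endothelial marker, junction, angiopoietin and VEGF, basement membrane and endothelial transcription factor lists lie below 0. Of the 5 tested erythroid genes 4 are haemoglobin genes, and the remaining gene is at 0.29.

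Among the receptors of the endoglin pathway, Eng was the only one called of 6 tested. Bmpr2 had a log2 fold change of 0.17, Tgfbr2 of -0.10, Tgfbr3 of -0.08 and Acvrl1, the type I receptor, of 0.04; the smallest unadjusted p among them was 0.697 for Bmpr2 (edgeR quasi-likelihood). Of the SMADs and target genes, 8 of 28 were tested, 3 with positive and 5 with negative values, and edgeR quasi-likelihood called none. Id1, which encodes an inhibitor of helix-loop-helix factors and is a direct SMAD target in endothelial cells, had 611 CPM in WT and 505 CPM in KO on average at 2 weeks and 1332 and 1123 CPM at 4 weeks. Its log2 fold change was -0.26 (SE 0.118). Id3 was at -0.17 (SE 0.0771), and Ltbp4, which encodes a binding protein for latent TGF-beta, was at -0.61 (SE 0.188). All 3 had an unadjusted p under 0.05 and an adjusted p of 0.724 to 0.824 in the edgeR quasi-likelihood test; DESeq2 called Ltbp4 (adjusted p = 0.0262). The inhibitory SMAD gene Smad7 missed the count minimum in 1 library and was not tested. At 2 weeks it had 27.8, 19.9, 24.0 and 40.5 CPM in WT and 22.6, 0.222, 13.8 and 1.26 CPM in KO libraries, and at 4 weeks it ranged from 36.4 to 65.4 CPM in WT and from 25.8 to 54.6 CPM in KO. Its groups overlapped at both times.

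The lists of endothelial genes did not all lean one way, and edgeR quasi-likelihood called no member other than Eng. Tip cell genes had 4 positive and 1 negative values, YAP/TAZ targets 4 and 1, and genes of endothelial to mesenchymal transition 5 and 5. Arterial genes had 7 positive and 10 negative values, sinusoidal and venous genes 3 and 6, Notch pathway genes 2 and 4, and shear stress genes 3 and 5. In the angiopoietin and VEGF list, 9 of 10 tested members were negative at both times, against 27.6% of all genes tested, and the median was -0.27. Tie1, an orphan receptor of the angiopoietin pathway, was at -0.61 (SE 0.179), with 634 to 967 CPM in 2-week WT and 228 to 616 CPM in 2-week KO libraries. At 4 weeks Tie1 ranged from 898 to 1301 CPM in WT and from 600.2 to 1102 CPM in KO, and the groups overlapped. Flt1, the VEGF receptor that acts largely as a decoy, was at -0.52 (SE 0.164). The Tie1 and Flt1 values had an unadjusted p under 0.05, which 2.43% of all genes had in the lower direction. DESeq2 called both, with adjusted p-values of 0.0253 for Tie1 and 0.0366 for Flt1.

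Ligands of that axis were mostly too low to test. Angpt2, a context-dependent antagonist of the Tek receptor that is released by activated endothelium, had 0, 3.03, 2.94 and 3.83 CPM in 2-week WT and 70.6, 0, 0.294 and 27.5 CPM in 2-week KO libraries, so that 2 KO libraries were high and 2 were at or near 0. The 4-week libraries ranged from 25.9 to 59.3 CPM in WT and from 112 to 173 CPM in KO, without overlap. With a more permissive minimum, its log2 fold change was 2.36 (SE 1.07) and its adjusted p was 1 (edgeR quasi-likelihood).

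Junction and barrier genes had 15 negative and 3 positive values among 18 tested (median -0.19), while 47.2% of all genes tested were negative. Jam2, a junctional adhesion molecule, was at -0.49 (SE 0.128), with 625 to 936 CPM in 2-week WT and 412 to 725 CPM in 2-week KO libraries, which overlap. The adherens junction gene Ctnna1 was at -0.29. Basement membrane and matrix genes had 10 negative values among 12 (median -0.30); the perlecan gene Hspg2 was at -0.55 (SE 0.213) and Col4a1, a basement membrane collagen, at -0.32 (SE 0.165). Endothelial transcription factor genes had 13 negative values among 16 (median -0.14), with the flow-responsive Klf2 at -0.41 (SE 0.187) and Klf4 at -0.54 (SE 0.244). Of the niche genes, Kitl, which encodes stem cell factor, was at -0.46 (SE 0.198) and Cxcl12, which retains blood stem cells in marrow, at -0.34, while the adhesion molecule gene Icam1 was at 0.15. Kitl and Cxcl12 also stand in the list of stromal cell markers. None of these genes passed the adjusted threshold in edgeR's quasi-likelihood test, while DESeq2 called Jam2 (adjusted p = 0.00753).

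After Eng, the lowest p-values in the lower direction belonged to Fkbp4, Scarb1, Aplnr and Jam2. Fkbp4, a co-chaperone of HSP90 and steroid receptors, had 282, 254, 341 and 492 CPM in 2-week WT and 123, 176, 145 and 108 CPM in 2-week KO libraries. At 4 weeks its groups overlapped, and its log2 fold change was -1.34 at 2 weeks against -0.35 at 4 weeks. Scarb1, the scavenger receptor for high-density lipoprotein, was at -0.51 (SE 0.132) and was apart at 4 weeks only. There it had 1621, 1007, 1096, 1225 and 1220 CPM in WT and 917, 888, 636 and 967 CPM in KO. Aplnr, the apelin receptor, was at -0.74 (SE 0.193) and was apart at 2 weeks only, with -0.74 at 2 weeks and -0.77 at 4 weeks. Their adjusted p-values (edgeR quasi-likelihood) ran from 0.27 for Fkbp4 to 0.371 for Scarb1, Aplnr and Jam2. DESeq2 called all 4, with adjusted p-values of 0.00236 for Fkbp4 and 0.00753 for each of the others.

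Among 16 tested heat shock and chaperone genes, 12 were negative and 4 positive, with a median of -0.17. Fkbp4 had the lowest value, Hspa8 was at -0.27 (SE 0.121) and Hspa9 at -0.45 (SE 0.194). Of 26 tested interferon response genes, 17 were positive and 9 negative (median 0.09), and no member was called.

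The log2 fold changes of the genes for the sorted surface proteins lay within 1 SE of 0: Pecam1, which encodes CD31, was at -0.10 (SE 0.118) and Ly6a, which encodes Sca1, at 0.05 (SE 0.098). So did that of Cdh5, whose promoter drives the recombinase, at -0.11 (SE 0.115). All 16 genes of the endothelial marker list passed the count minimum, and 12 of them, Eng included, had negative log2 fold changes (median -0.14). The summed level of the list without Eng averaged 7733 CPM in WT and 6480 CPM in KO at 2 weeks, and 14340 CPM in WT and 13190 CPM in KO at 4 weeks. The sums were 6831 to 8620 CPM in 2-week WT and 5631 to 7237 CPM in 2-week KO libraries. The 4-week sums were 13580 to 15670 CPM in WT and 12210 to 15010 CPM in KO, so the groups overlapped at both times. In bulk RNA of this kind, fewer cells of a type and less RNA per cell cannot be told apart.

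Transcripts of other cells were present, and those of haemoglobin were higher in KO libraries on average. Haemoglobin genes, the product of red cells and their precursors, were at 1.81 to 2.06 on the log2 scale for Hba-a1, Hba-a2, Hbb-bs and Hbb-bt, and edgeR quasi-likelihood called none; the smallest adjusted p was 0.184 for Hba-a2. DESeq2 called Hbb-bs (adjusted p = 0.00753) and Hba-a1 (adjusted p = 0.0106). Their summed level was 70.5 to 189 CPM in 2-week WT and 275 to 1308 CPM in 2-week KO libraries, without overlap. At 4 weeks it was 132 to 1129 CPM in WT and 572 to 2498 CPM in KO, with overlap. The other 10 erythroid markers summed to 40.5 to 127 CPM in 2-week WT and 51.4 to 148 CPM in 2-week KO libraries. Their 4-week sums were 55.6 to 136 CPM in WT and 88.1 to 215 CPM in KO.

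The neutrophil list summed to 4733 CPM in the 2-week KO male m2 and to 3844 CPM in the 2-week KO male m3. It stayed at or under 256 CPM in the other 6 libraries of that time and at or under 106 CPM in the 4-week libraries. Monocyte and macrophage markers stood apart in the same 2 libraries, at 514 and 326 CPM, against at most 93.4 CPM in every other library. Ptprc, which encodes CD45, was at 17.1 CPM in the 2-week KO male m2. Stromal markers summed to 1574 to 2180 CPM in WT and 1376 to 1709 CPM in KO libraries at 2 weeks, and to 1491 to 3464 CPM in WT and 1118 to 3088 CPM in KO at 4 weeks. Osteoblast markers summed to 158 to 289 CPM in WT and 68.6 to 181 CPM in KO at 2 weeks, and to 234 to 301 CPM in WT and 154 to 259 CPM in KO at 4 weeks. The groups overlapped at both times for both lists. Their tested members (3 stromal and 2 osteoblast genes, with Col1a1 in both) all had negative log2 fold changes, with medians of -0.46 and -0.64. Col1a1 was at -0.01 at 2 weeks and -1.30 at 4 weeks. T and NK cell markers summed to at most 5.74 CPM in every library. Without the 2-week KO males m2 and m3, 0 genes were called in the common fit (305 had an unadjusted p under 0.05), and the log2 fold changes were -1.90 for Eng, 1.20 for Bax, 0.85 for Ephx1 and 0.50 for Rps19. The part that transcripts of other cells have in these results was not tested.

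**Figure D4:**
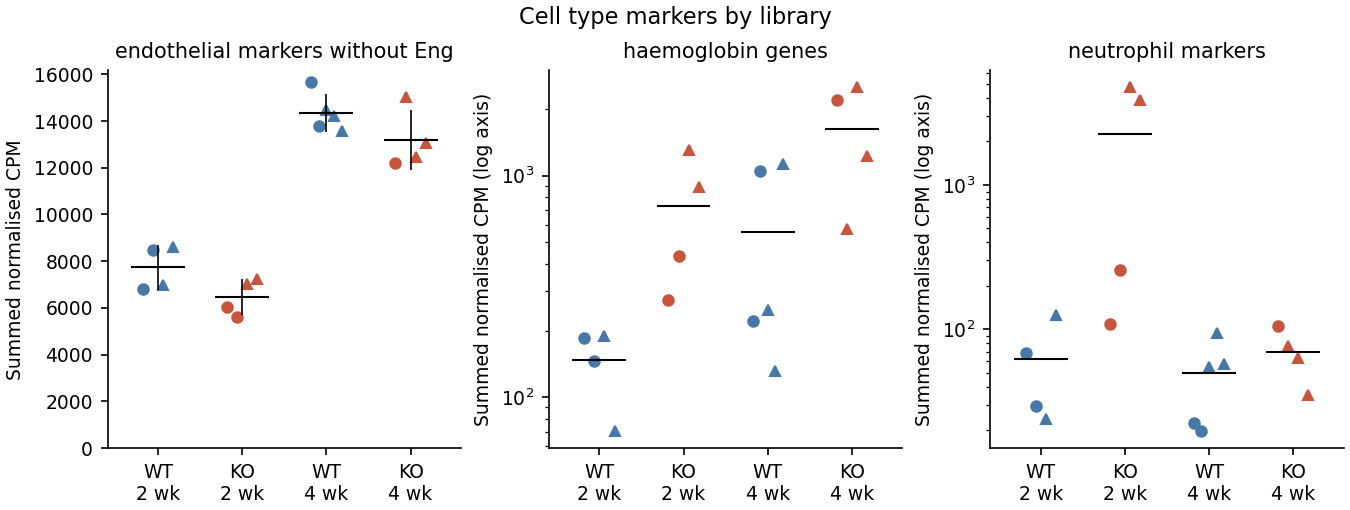
Summed normalised CPM of the endothelial markers without Eng (linear axis), the 4 haemoglobin genes and the neutrophil markers (log axes) in each library (symbols as in the plot of the called genes; horizontal line, group mean; vertical line, SD, on the linear axis). Haemoglobin sums are higher in KO on average at both times, and 2 of the 2-week KO libraries stand apart in the neutrophil sum.

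The KO library with the most Eng left at each time had the lowest Bax level of its group. At 2 weeks this was the male m2, with 379.4 CPM of Eng and 99.2 CPM of Bax, and at 4 weeks it was the male m2 of that time, with 1491 CPM of Eng and 66.0 CPM of Bax. The same libraries had the lowest Ephx1 of the KO libraries of their time, at 150 and 315 CPM. Rps19 did not follow this order: it was lowest in the 2-week male m2, but at 4 weeks the male m2 had 1398 CPM, the second highest of the KO libraries. Rps27l was lowest in the 4-week male m2 and not in the 2-week one. The same libraries also had the highest haemoglobin sums of their groups, at 1308 and 2498 CPM. The 2-week male m2 had the highest neutrophil sum (4733 CPM) and monocyte and macrophage sum (514 CPM) of its group. The 4-week male m2 did not, at 63.2 and 45.5 CPM. With 4 KO libraries a time this order is a description.

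Whether the genotype difference had the same size at both times was tested with a genotype-by-time term across all 4987 genes. The edgeR quasi-likelihood test called 0 genes (0%) after adjustment, while 197 genes (3.95%) had an unadjusted p under 0.05. DESeq2 called 8 genes and voom 0. The same edgeR test called 15 genes with filterByExpr and 9 with no count filter. It called 26 without the 2-week KO males m2 and m3, the libraries with high neutrophil sums. An unadjusted p under 0.05 was given to 1872 of 15703 genes with filterByExpr and 2402 of 26916 with no count filter. Without the 2 males it was given to 475 of 4987. For Eng the 4-week minus 2-week difference was 0.17 (SE 0.535), for Bax -0.02 (SE 0.417), for Ephx1 0.03 (SE 0.304) and for Rps19 -0.05 (SE 0.169) on the log2 scale. These standard errors leave room for sizeable differences between the times in Eng and Bax. The smallest p belonged to Vps4a, an ATPase that recycles the ESCRT-III membrane scission complex, at -1.59 at 2 weeks and 0.12 at 4 weeks (adjusted p = 0.247, edgeR quasi-likelihood). It was followed by Tnfrsf12a, the TWEAK receptor, at -2.79 and -0.09, by Pdf, whose exons overlap Vps4a, and by the osmotic stress factor gene Nfat5, at 2.32 and -0.23.

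**Figure D5:**
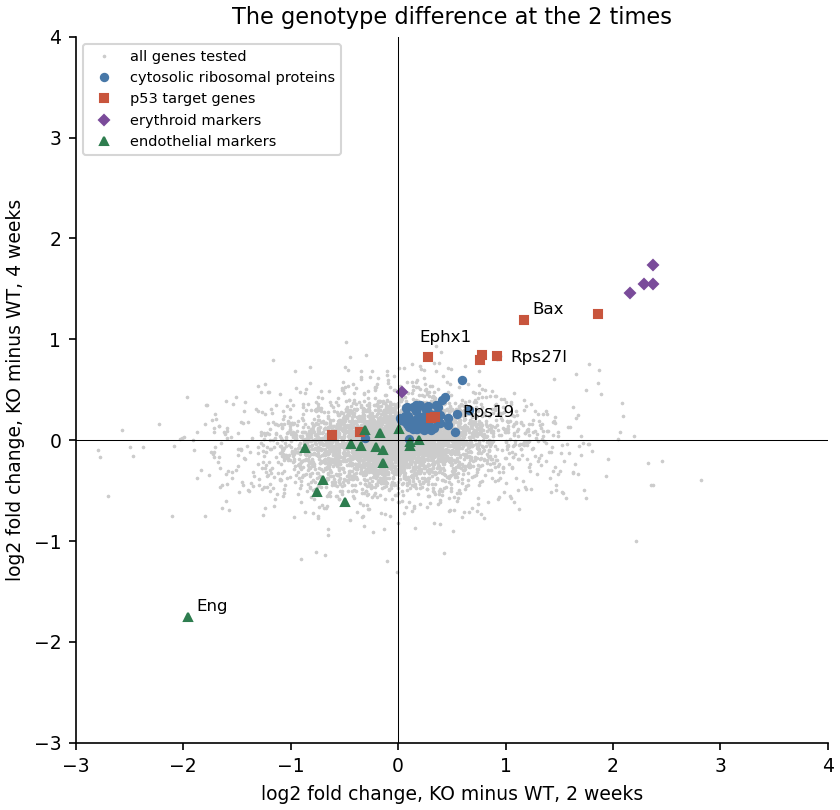
Log2 fold change at 2 weeks (horizontal) and 4 weeks (vertical) for the genes tested, with the members of 4 lists coloured; 2 genes lie outside the plotted range. Eng lies at -1.96 and -1.75, Bax at 1.17 and 1.19, and the ribosomal protein genes form a compact group of small positive values.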

How the data were processed

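RNA of sorted mouse bone marrow endothelial cells was measured in 17 libraries. The deposited files hold the authors' raw counts of reads per gene, not normalised; per the submitters' processing notes, cutadapt, STAR and HTSeq 0.6.1p1 were used with GRCm38 (mm10). The annotation release and strand setting are not given in the sources used here. Gene symbols and positions were taken from GENCODE M21, which named 49326 of 49585 identifiers. Genes with at least 10 counts in every library were fitted in edgeR 4.0.16 (R 4.3.3) with TMM scaling, library size as the total of all genes, time and genotype as terms, robust quasi-likelihood F tests, and Benjamini-Hochberg adjustment over 4987 genes at 0.05. The fit was tested on simulated data. The exact permutation test was two-sided, on log2 CPM with a prior count of 2, over 8820 regroupings of genotype within time. The median biological coefficient of variation was 38.7%. Named genes were Eng, the sort and lineage markers Pecam1, Ly6a, Ptprc and Cdh5, genes called or with the smallest p in each direction, up to 4 members of each list with the smallest p, and genes with the smallest p for genotype by time. All 10 tested p53 list members, the receptors, Rack1, Phlda3, Mdm2, Smad7, Angpt2, Cxcl12 and Rpl13a were added after their values were seen. The members and the 35 gene lists were chosen with earlier results of these data known. Alternatives included other scalings, count minimums, DESeq2 1.42.0, limma voom (limma 3.58.1), a sex term, a replicate block, each time alone and leaving out each library. No libraries agreed within sampling noise. Promoter windows are from RefSeq (GRCm38.p6). The values of 1 gene are not reported here.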

Additional observations from a re-analysis of the deposited data

Results flagged for a closer look

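Dixon's test, at its 95% critical value, was run within each of the 4 groups. It took the genes with the smallest p, the markers Pecam1, Cdh5 and Ly6a, and the summed lists. That made 128 groups of values, of which chance alone would mark about 6.4. Ptprc was not tested in this way. Its 2-week KO values were 0 CPM in f1 and f4, 17.1 CPM in m2 and 0.292 CPM in m3. The test marked 1: Rps27l in the 2-week KO female f1, at 470 CPM against 202 to 217 CPM in the rest of its group. Without this library the log2 fold change of Rps27l over both times was 0.73 (adjusted p = 0.0434, edgeR quasi-likelihood), against 0.90 (adjusted p = 0.0572) with it, and the gene was called.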

How the results depend on the processing

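For the 22 genes other than Eng that had the smallest p or marked the sorted cells, 606 alternative values kept their direction and their side of the threshold, 48 kept the direction and lost the call, 20 gained one, and 1 (Ly6a, never called) changed sign. The 606 come mostly from genes that were not called in the main fit either. The lost calls were all those of Bax, Ephx1 and Rps19. Bax was called under 15 of 30 alternatives with an adjusted p, Ephx1 under 14 of 31 and Rps19 under 15 of 31. Eng lost its call under 5 alternatives, given below. Among the uncalled list members tested and named in the text, the sign changed under 10 alternatives for Tgfbr3, 8 for Acvrl1, 5 each for Bmpr2 and Fas, 2 each for Tgfbr2 and Icam1, and 1 each for Btg2, Vps4a and Rpl13a. Scaling by DESeq2's size factors, upper-quartile scaling, a minimum of 50 counts, voom, a sex term and estimation without robustness gave 4 or 5 calls, the fifth being Rps27l. Wider gene sets gave fewer calls: 1 gene higher and 0 lower with filterByExpr (15703 genes; Eng -1.83, adjusted p = 0.0543, edgeR quasi-likelihood), where 366 genes had an unadjusted p under 0.05, and 1 higher and 0 lower with no count filter (26916 genes; Eng -1.84, adjusted p = 0.0655), where 1190 did. DESeq2 called 10 genes higher and 14 lower, with 3 of the 4 main calls among them and 7 ribosomal protein genes, and gave no adjusted p for 4158 genes, Bax included; the cause of the higher count was not tested. The 2-week libraries alone gave 0 genes higher (Eng was called lower), and the 4-week libraries alone gave 0 in either direction (Eng -1.75, adjusted p = 0.992). Without the 2-week KO males m2 and m3 the counts were 0 and 0 (Eng -1.90, adjusted p = 0.0612; 305 genes with an unadjusted p under 0.05). Leaving out 1 library at a time gave 0 to 4 genes higher and 1 gene lower, with Eng from -2.16 to -1.71. For the genotype-by-time term, 15 genes passed with filterByExpr, 9 with no filter, 8 with DESeq2 and 26 without the 2 males, against 0; leaving out 1 library gave 0 to 1, the 1 being without the 2-week WT f4. Same-numbered KO and WT libraries correlated in their deviations at -0.0134 to 0.0518 over 4 pairs at 2 weeks and 0.178 to 0.579 over 3 pairs at 4 weeks, and 3 of the 7 KO libraries correlated best with their own number, so the numbers were not taken to pair the libraries. With the replicate block the counts were 0 higher and 0 lower (263 genes with an unadjusted p under 0.05), and Eng was at -2.07 (adjusted p = 0.206). Ribosomal protein genes were positive in 79 to 80 of 80 cases, p53 list members in 8 to 10 of 10 and erythroid markers in 5 of 5 under every alternative run. Of those 5 erythroid markers 4 are haemoglobin genes. The count minimum left 22 of 32 p53 list members untested. The number of genes detected did not follow the total count: it was lower at 2 weeks, where totals ran from 26705337 to 40882715, than at 4 weeks, where they ran from 20477400 to 33726630.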
